A study of Homo sapiens with 16 samples.

Results

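The 10 genes described here, members of the MYC, MAX and MXD network of transcription factors, were followed through both RNA experiments of the series: MYC, MYCL, MAX, MXD1, MXI1, MXD3, MXD4, MNT, MLX and MLXIPL. They were chosen by name, and all 10 members had a row among the 59609 genes of both deposited RNA tables. The samples were labelled Huh7, a human liver cancer cell line. One RNA experiment set 3 samples given sorafenib, an inhibitor of RAF and receptor tyrosine kinases, against 3 given DMSO, and the other set 3 samples with overexpression of the metallothionein gene MT1G (MT1G-OE) against 3 with an empty vector. ATAC-seq, in which a transposase cuts open chromatin, was run on 2 sorafenib and 2 DMSO samples. Dose, time, vector type and clone were not in the labels. Separate cultures were not stated either, and p-values therefore measure the spread between these samples, which may be technical.

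MYC family proteins bind DNA only as pairs with MAX, at a sequence called the E-box (CACGTG), where they raise transcription of genes for ribosome making, nucleotide synthesis and growth. The MXD proteins (MXD1, MXI1, MXD3 and MXD4) and MNT pair with the same MAX, bind the same E-boxes and recruit SIN3 and histone deacetylases, so they act as antagonists of MYC. MLX is a second dimer partner: it pairs with some of the antagonists and with the glucose-sensing activators MLXIPL (also called ChREBP) and MLXIP (MondoA). In the liver MLXIPL is known for switching on lipogenic and glycolytic genes when glucose is high.

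The RNA libraries held between 16549330 and 26781600 reads counted in genes. Levels are normalized read counts, that is reads per gene divided by a size factor per library. They are not corrected for gene length, so they do not rank genes against each other, and sums over genes are of reads. MT1G itself had 0 reads in all DMSO and vector libraries, 180 ± 19.8 normalized read counts with sorafenib and 150 ± 25.9 with overexpression (SD, n = 3 each). Huh7 cells are known to make albumin and alpha-fetoprotein, but ALB and APOB had 0 reads in all 12 RNA libraries. AFP averaged at most 2.29, and only HNF4A of 10 hepatocyte markers averaged at least 10 in any group. The summed hepatocyte markers ranged from 101 to 158 with sorafenib and from 339 to 354 with DMSO, and from 204 to 234 with MT1G-OE and from 304 to 345 with vector. Of 7 fibroblast and stellate cell markers 5 averaged at least 10 in every group. The sums of the 7 ran from 1039 to 1079 with sorafenib against 2338 to 2591 with DMSO. They ran from 2644 to 3475 with MT1G-OE against 2159 to 2206 with vector. The sums mostly follow LUM, with means of 447 with sorafenib, 1780 with DMSO, 2083 with MT1G-OE and 1502 with vector. COL1A1 averaged 440 with sorafenib and 464 with DMSO. COL3A1 (97.0 against 53.2) and COL1A2 (4.77 against 0) were higher with sorafenib than with DMSO. The sums of 5 leukocyte markers were at most 18.2 and those of 4 endothelial markers at most 75.7. The part of cell identity in the results that follow was not tested, and a change in the number of cells of a type and a change in RNA per cell cannot be told apart in bulk RNA.

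Promoter windows from 250 bases before to 50 after a transcription start were in the RefSeq table (GRCh38.p14) for 9 members, 12 windows in all, and MYC was described over its gene span. The 250 bases before the start are printed 5′ to 3′ on the gene's strand for 5 members. MYCL and MXD1 are shown because their transcripts rose most with sorafenib, and MXD4, MNT and MLX because these 3 of the 12 windows held CACGTG, printed in capitals. This motif is its own reverse complement, so both strands are covered, and it occurred in 7.26% of all 35116 promoter windows. They lie at chr1:39901918-39902167 (minus strand), chr2:69914859-69915108 (plus strand), chr4:2262110-2262359 (minus strand), chr17:2401061-2401310 (minus strand) and chr17:42566850-42567099 (plus strand).
MYCL: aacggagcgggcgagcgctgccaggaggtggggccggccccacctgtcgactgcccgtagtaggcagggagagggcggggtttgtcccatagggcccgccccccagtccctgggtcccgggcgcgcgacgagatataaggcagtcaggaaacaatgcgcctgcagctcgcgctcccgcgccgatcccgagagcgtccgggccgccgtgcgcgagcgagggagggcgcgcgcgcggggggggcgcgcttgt
MXD1: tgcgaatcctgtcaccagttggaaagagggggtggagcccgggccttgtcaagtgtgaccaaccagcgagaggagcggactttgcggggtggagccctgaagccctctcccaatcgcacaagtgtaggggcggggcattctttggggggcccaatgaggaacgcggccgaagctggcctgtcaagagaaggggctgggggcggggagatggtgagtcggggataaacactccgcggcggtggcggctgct
MXD4: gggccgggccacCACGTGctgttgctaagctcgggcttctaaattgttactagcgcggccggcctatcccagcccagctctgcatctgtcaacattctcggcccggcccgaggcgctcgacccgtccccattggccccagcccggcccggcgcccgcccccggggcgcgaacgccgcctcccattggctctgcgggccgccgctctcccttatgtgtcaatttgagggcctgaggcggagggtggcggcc
MNT: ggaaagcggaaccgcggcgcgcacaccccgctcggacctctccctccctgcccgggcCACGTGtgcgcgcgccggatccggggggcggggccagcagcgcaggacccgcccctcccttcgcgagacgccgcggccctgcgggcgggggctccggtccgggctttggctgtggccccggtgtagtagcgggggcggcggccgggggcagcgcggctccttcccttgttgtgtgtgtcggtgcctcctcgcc
MLX: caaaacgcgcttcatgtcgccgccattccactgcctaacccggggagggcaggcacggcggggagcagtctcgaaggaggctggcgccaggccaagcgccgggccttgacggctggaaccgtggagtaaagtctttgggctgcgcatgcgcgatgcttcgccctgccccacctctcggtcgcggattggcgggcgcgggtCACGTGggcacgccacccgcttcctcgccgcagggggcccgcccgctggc
Counted from the transcription start, CACGTG began at -238 in MXD4, -193 in MNT and -50 in MLX. A match is only a description of these letters and not a binding site.

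With sorafenib, 4 of the 10 members rose and 4 fell: MYC, MYCL, MXD1 and MLXIPL were higher, and MAX, MXI1, MXD4 and MNT were lower than with DMSO. The largest changes were a 23.6-fold rise of MYCL and a fall of MNT to 0.427 of the DMSO level. Changes were tested with limma on log2 values (pseudocount 1) across all 14915 genes with a mean of at least 10, with Benjamini-Hochberg adjustment and a threshold of 0.05. Of all genes tested 34.4% were higher and 35.8% lower, 70.3% together, so 8 calls of 10 are near the share over all genes. MYCL is one of the 8 and reached the minimum mean only through its sorafenib libraries, and of the other 9 members 7 were called. The groups of 3 did not overlap for 8 of the 10 members, again with MYCL among the 8, against 73.0% of all tested genes. The median log2 change of the members, MYCL included, was -0.04, beside -0.02 over all genes tested.

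**Figure D1:**
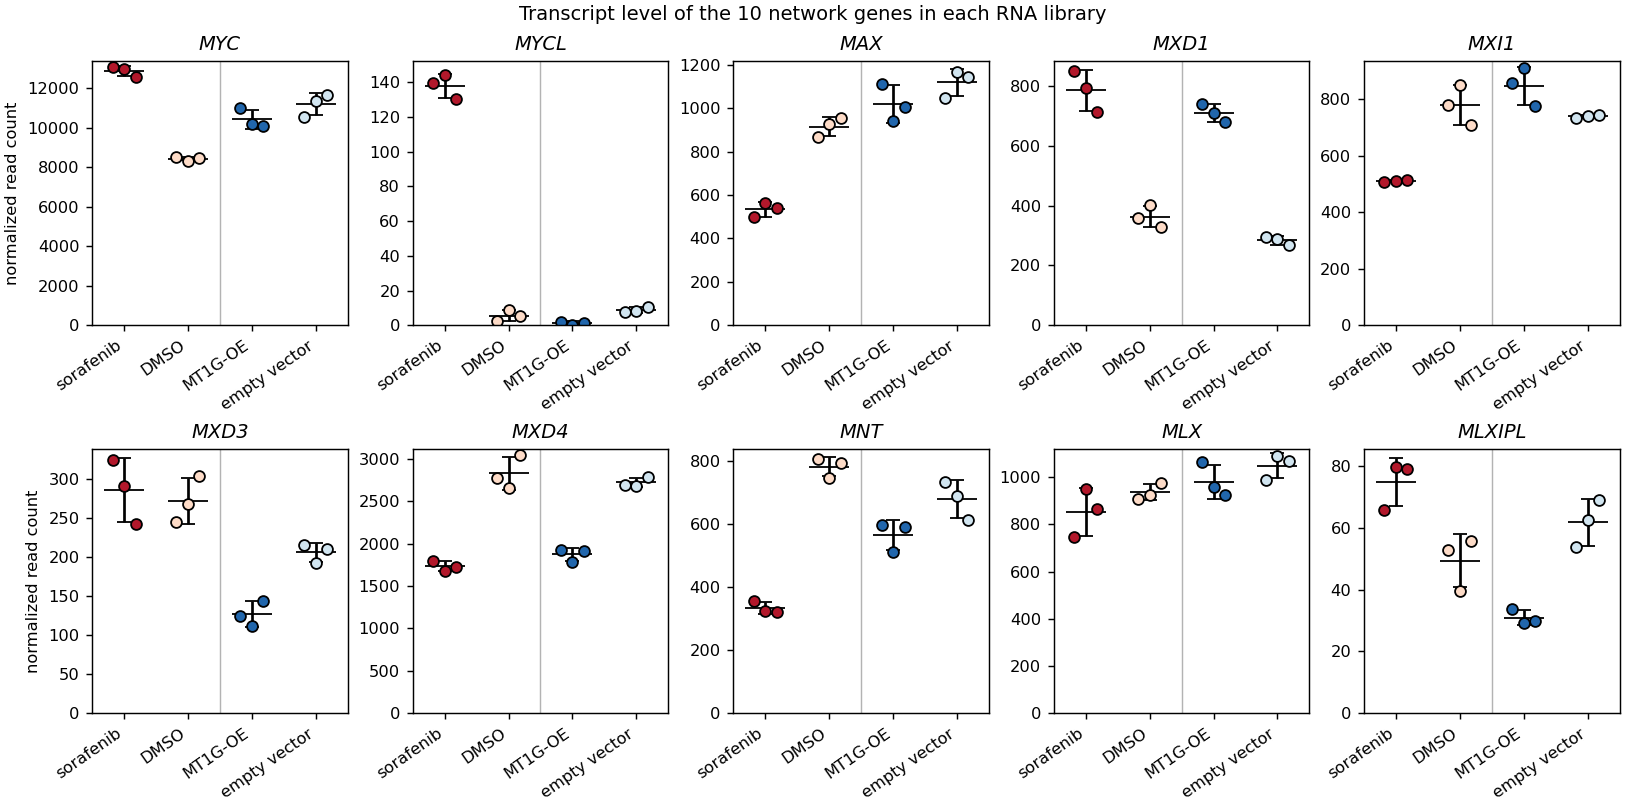
Normalized read count of each network gene in the 12 RNA libraries (vertical axes start at 0). Points are libraries, long bars are means and short bars SD (n = 3 per group), and the 2 tables on either side of the grey line were normalized separately. MYCL stood between 130 and 144 with sorafenib and below 11 in all other libraries, and MXD1 was higher with sorafenib than with DMSO and higher with MT1G-OE than with vector.

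MYC, the main activator of the network (chromosome 8, 127735434 to 127742951, GRCh38), had 13066, 12990 and 12592 normalized read counts with sorafenib and 8501, 8338 and 8490 with DMSO. All sorafenib libraries lay above all DMSO libraries. The rise was 1.53-fold (log2 change 0.61, SE 0.05, limma adjusted p = 3.68e-08). MYCL, a shorter relative of MYC (chromosome 1, 39895428 to 39901917), had 139, 144 and 130 normalized read counts with sorafenib and 2.25, 8.68 and 5.46 with DMSO. It was close to silent with DMSO, with 16 reads over the 3 libraries, and held 446 reads with sorafenib. With DMSO alone it would have been under the minimum mean. A gene tested on those terms had to differ, so its log2 change of 4.56 (SE 0.33, limma adjusted p = 4.27e-09) is given as a description. It was 3.82 with a pseudocount of 5. Counted in reads and scaled by the size factors the ratio was 24.6, with a 95% counting interval from 15.0 to 43.4. The lncRNA gene MYCL-AS1 overlaps MYCL, and whether counting used strand is not given in the sources used here. MYCN, the third MYC family gene, had 7 reads over the 3 sorafenib libraries and 0 with DMSO, too few for the test.

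MAX, the partner that MYC and its antagonists share (chromosome 14, 65006101 to 65102695), fell with sorafenib. It had 498, 565 and 540 normalized read counts with sorafenib and 865, 927 and 953 with DMSO, with no overlap. The log2 change was -0.78 (SE 0.08, limma adjusted p = 1.66e-07). The span of MAX overlaps FNTB and MAX-AS1 in the annotation. Genes also overlap the spans of MXD1 (ASPRV1), MXI1 (the lncRNA gene LOC105378480), MXD3 (PRELID1), MXD4 (MIR4800) and MLX (PSMC3IP).

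The antagonists split. MXD1, which is known to be induced as cells differentiate (chromosome 2, 69915109 to 69942945), had 850, 791 and 713 normalized read counts with sorafenib and 360, 401 and 328 with DMSO. It rose 2.16-fold (log2 change 1.11, SE 0.09, limma adjusted p = 2.12e-08). MXD4 (chromosome 4, 2247432 to 2262109), whose promoter holds one of the CACGTG motifs printed above, had 1798, 1681 and 1724 with sorafenib and 2778, 2655 and 3044 with DMSO. It fell by 0.70 on the log2 scale (SE 0.06, limma adjusted p = 6.58e-08). MXI1, also called MXD2 (chromosome 10, 110207605 to 110287365), had 506, 511 and 513 with sorafenib and 778, 850 and 708 with DMSO, and fell by 0.61 on the log2 scale (SE 0.08, limma adjusted p = 4.56e-06). In each of these 3 genes the groups were fully apart.

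MNT, an antagonist present in most cells (chromosome 17, 2384073 to 2401060), showed the largest fall of the 10. It had 355, 323 and 321 normalized read counts with sorafenib and 805, 748 and 794 with DMSO. The log2 change was -1.23 (SE 0.08, limma adjusted p = 1.05e-09), the 625th lowest of the 14915 genes tested. MXD3, known for its expression in S phase (chromosome 5, 177305499 to 177312752), had 324, 291 and 242 with sorafenib and 245, 267 and 303 with DMSO, and the groups overlapped. The log2 change, 0.07 with a 95% interval of -0.18 to 0.32, did not pass (limma adjusted p = 0.623).

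In the MLX arm, MLX (chromosome 17, 42567100 to 42573203) had 744, 948 and 864 normalized read counts with sorafenib and 909, 925 and 977 with DMSO. The groups overlapped, and the log2 change of -0.14 (95% interval from -0.32 to 0.03) did not pass the test (limma adjusted p = 0.138). Without sorafenib replicate 2 it was -0.22 and passed (limma adjusted p = 0.0415). MLXIPL (chromosome 7, 73593202 to 73647907) had 65.8, 79.7 and 79.0 with sorafenib and 52.9, 39.5 and 55.7 with DMSO, a scarce transcript with no overlap. It rose 1.52-fold (log2 change 0.60, SE 0.19, limma adjusted p = 0.00987). That call was lost without DMSO replicate 2 (adjusted p = 0.0501), and the authors' deposited table gave MLXIPL an adjusted p of 0.0610.

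With MT1G overexpression, MXD1 rose and MXD3, MXD4 and MLXIPL fell, while MYC, MAX, MXI1, MNT and MLX did not pass the test. MXD1 rose 2.50-fold. In this experiment 13914 genes were tested and 22.8% of them called, 11.5% higher and 11.3% lower, beside 4 of the 9 members tested. The groups did not overlap for 6 of these 9, against 39.4% of all tested genes. The median log2 change of the 9 was -0.14, beside 0.00 over all genes tested.

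MYC had 10997, 10170 and 10103 normalized read counts with MT1G-OE and 10563, 11375 and 11661 with vector. The groups overlapped, and the log2 change was -0.10 (95% interval of -0.27 to 0.06, limma adjusted p = 0.356). MYCL had 1.99, 0 and 1.46 with MT1G-OE and 7.68, 8.06 and 10.5 with vector, 4 against 25 reads. These levels were under the minimum mean, so MYCL was not tested here. The ratio of its reads was 0.143, with a 95% counting interval from 0.0361 to 0.414, and with no minimum mean limma gave a log2 change of -2.31 (adjusted p = 0.00425).

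MAX stood at 1020 ± 86.7 normalized read counts with MT1G-OE and 1120 ± 62.8 with vector (SD, n = 3 each), a log2 change of -0.14 (95% interval from -0.32 to 0.05, limma adjusted p = 0.285). MXD1 had 741, 709 and 678 with MT1G-OE and 295, 288 and 267 with vector, fully apart, for a log2 change of 1.32 (SE 0.10, limma adjusted p = 4.91e-09). That was the 185th highest of the 13914 genes tested. MXD4 had 1927, 1780 and 1911 with MT1G-OE and 2695, 2684 and 2786 with vector, again with no overlap. It fell by 0.54 on the log2 scale (SE 0.08, limma adjusted p = 4.1e-05). MXD3 had 124, 112 and 144 with MT1G-OE and 215, 192 and 210 with vector, and also fell without overlap (log2 change -0.70, SE 0.14, limma adjusted p = 0.00131).

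MXI1 had 856, 908 and 774 normalized read counts with MT1G-OE and 734, 741 and 742 with vector. Its groups did not overlap, but the log2 change of 0.19 (95% interval from 0.00 to 0.38) did not pass the test (limma adjusted p = 0.132). MNT had 597, 512 and 591 with MT1G-OE and 734, 690 and 614 with vector, a log2 change of -0.26 (95% interval from -0.47 to -0.05, limma adjusted p = 0.0674). Without MT1G-OE replicate 3 both passed, at adjusted p = 0.042 for MXI1 and 0.0422 for MNT. MLX stood at 980 ± 72.8 with MT1G-OE and 1048 ± 52.3 with vector, a log2 change of -0.10 (95% interval from -0.28 to 0.09, limma adjusted p = 0.449). MLXIPL had 33.8, 29.1 and 30.0 with MT1G-OE and 53.7, 62.7 and 68.8 with vector. It was lower in every MT1G-OE library and fell to 0.511 of the vector level (log2 change -0.97, SE 0.22, limma adjusted p = 0.00385).

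**Figure D2:**
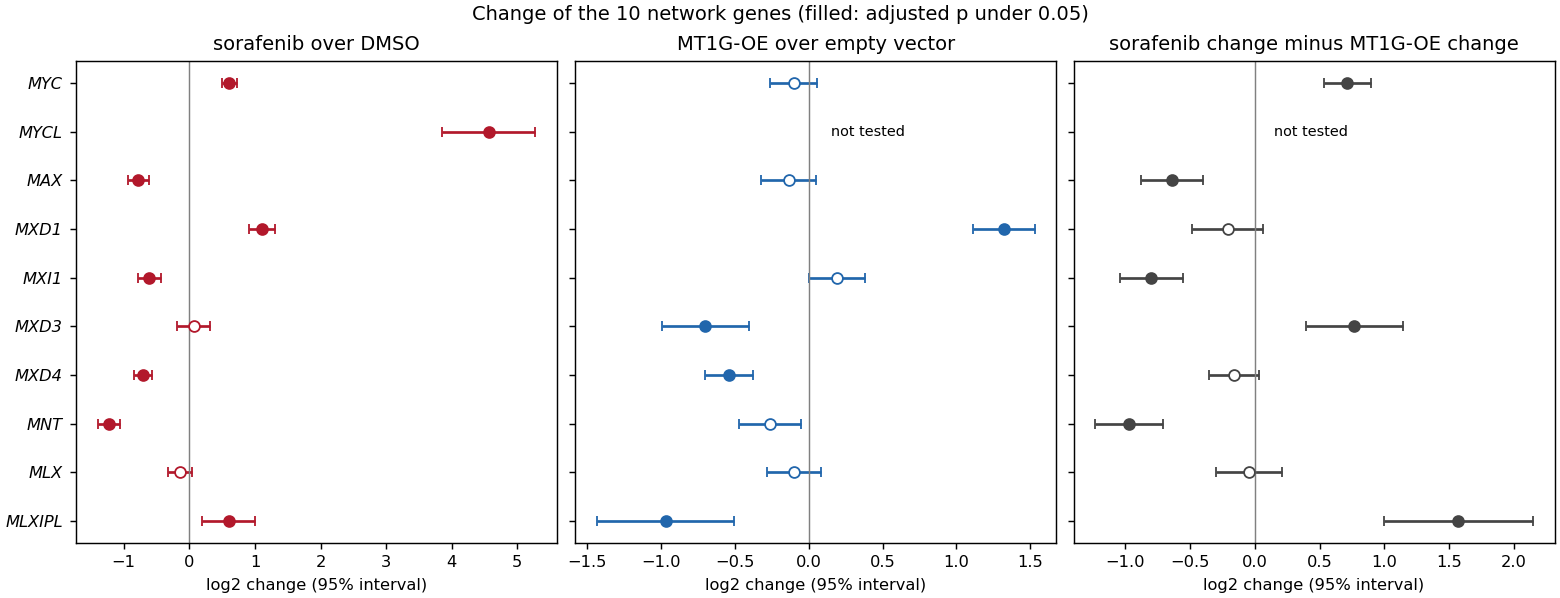
Log2 change of each network gene on the scale of normalized read count plus 1 for sorafenib over DMSO, MT1G-OE over empty vector and the first minus the second, each panel with its own axis. Points are limma estimates with 95% intervals, filled where the adjusted p was under 0.05. MXD1 and MXD4 moved the same way in both experiments, and MLXIPL rose with sorafenib and fell with MT1G-OE.

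Whether a member responded differently in the 2 experiments was tested as the sorafenib change minus the MT1G-OE change in 1 fit of all 12 libraries, over 13748 genes. The changes differed for 6 of the 9 members tested, beside 54.3% of all genes (24.4% with a higher and 30.0% with a lower value). The difference was 0.71 for MYC (SE 0.09, limma adjusted p = 6.45e-07), 0.77 for MXD3 (adjusted p = 0.0012) and 1.57 for MLXIPL (SE 0.28, adjusted p = 6.13e-05). It was -0.64 for MAX (SE 0.11, adjusted p = 7.93e-05), -0.80 for MXI1 (adjusted p = 6e-06) and -0.97 for MNT (SE 0.13, adjusted p = 1.44e-06). No difference was called for MXD1, at -0.21 with a 95% interval from -0.48 to 0.06, for MXD4, at -0.16 (from -0.36 to 0.03), or for MLX, at -0.05 (from -0.30 to 0.21). MXD1, MXD4 and MLXIPL were called in both experiments, MXD1 and MXD4 in the same direction and MLXIPL in opposite ones. The sorafenib call of MLXIPL was lost without DMSO replicate 2, as given above. MLX was called in neither experiment. The shares of all genes called in both or in neither were not computed, so these are descriptions of single members.

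On a scale common to both tables, reads scaled to the library's total in genes (CPM), MYC stood at 727 ± 12.4 CPM with sorafenib, 524 ± 12.2 with MT1G-OE, 538 ± 18.5 with vector and 408 ± 8.36 with DMSO (SD, n = 3 each). The MT1G-OE and vector levels did not differ beyond their spread, and levels were not tested across the tables. Library totals and size factors scale libraries differently, so changes in CPM are not those tested above. MLX, for example, averaged 48.1 CPM with sorafenib and 45.2 with DMSO, but 852 and 937 normalized read counts. MYCL stood at 7.78 ± 0.384 CPM with sorafenib, 0.0573 ± 0.0509 with MT1G-OE, 0.419 ± 0.0672 with vector and 0.264 ± 0.159 with DMSO, and the last 2 did not differ beyond their spread. MXD1 stood at 44.3 ± 3.72 CPM with sorafenib and 35.7 ± 0.933 with MT1G-OE, and lower in both controls, at 17.6 ± 2.16 with DMSO and 13.6 ± 0.908 with vector.

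The balance of antagonist to activator reads was lower with sorafenib than with DMSO, and overlapped between MT1G-OE and vector. The summed normalized read count of MXD1, MXI1, MXD3, MXD4 and MNT per read of MYC and MYCL was 0.290, 0.274 and 0.276 with sorafenib and 0.584, 0.590 and 0.610 with DMSO. All sorafenib libraries lay below all DMSO libraries. With MT1G-OE the ratio was 0.386, 0.395 and 0.406 and with vector 0.442, 0.404 and 0.396, and these groups overlapped. MXD1 made up 21.5 ± 1.03% of the summed antagonist count with sorafenib and 7.25 ± 0.903% with DMSO, and 17.2 ± 0.582% with MT1G-OE and 6.12 ± 0.294% with vector. The MXD4 share was 47.6 ± 1.30% with sorafenib and 56.2 ± 2.43% with DMSO, and 45.4 ± 1.18% with MT1G-OE and 58.8 ± 1.36% with vector. These sums hold 7 of the 10 members, without MAX, MLX and MLXIPL. They weight longer transcripts more, compare libraries and not genes, and were not tested.

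**Figure D3:**
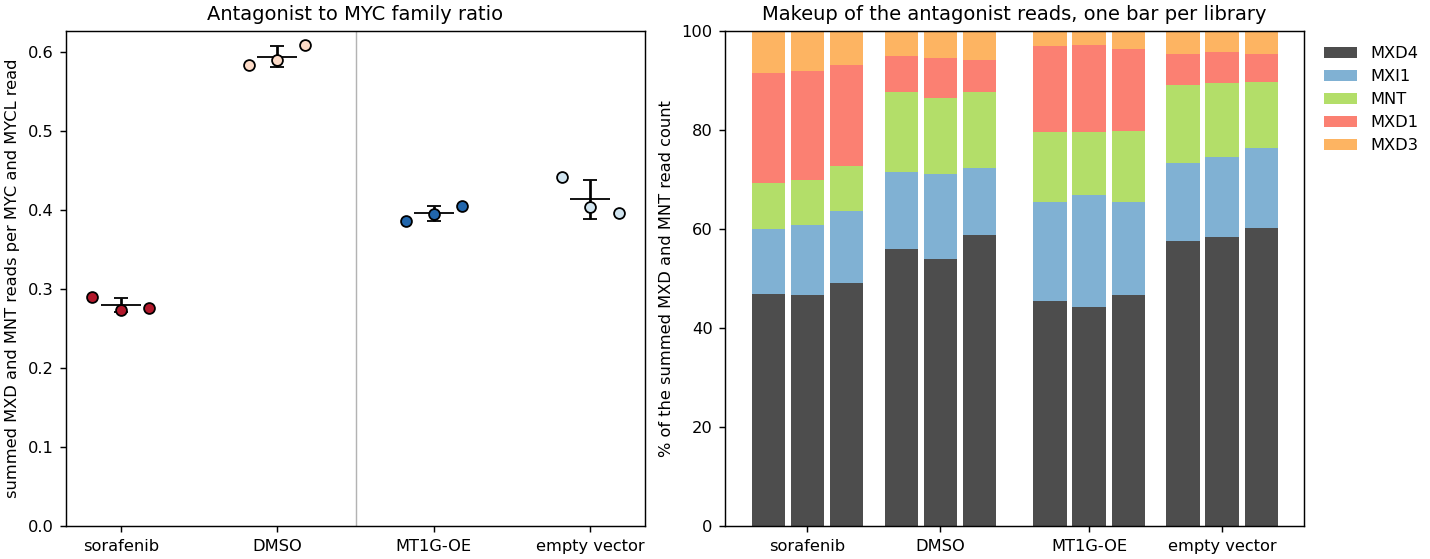
Left, summed MXD1, MXI1, MXD3, MXD4 and MNT normalized read count divided by that of MYC and MYCL in each RNA library (points), with mean and SD (n = 3). Right, the share of each antagonist in the summed count, 1 bar per library. The sorafenib libraries sat between 0.274 and 0.290 and the DMSO libraries between 0.584 and 0.610, and the MXD1 share was larger with sorafenib than with DMSO and with MT1G-OE than with vector.

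Among the 5 genes most like MYC over the 12 RNA libraries were KCTD5, JMJD6, COQ10A and ZNF213, with Pearson r between 0.994 and 0.997 after each table was centred on its controls. This was taken from 10137 genes with a mean of at least 100 in both tables and is a description, since the libraries share only 4 groups. JMJD6, for example, had log2 changes of 0.60 with sorafenib and -0.06 with MT1G-OE.

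Other genes of the network and its surroundings were taken from lists chosen with earlier results of these data known. Their counts are therefore descriptions. MGA, the largest MAX partner, fell with sorafenib to 1363 ± 81.3 normalized read counts, against 2319 ± 287 with DMSO (log2 change -0.76, limma adjusted p = 4.74e-07), and was at 0.14 with MT1G-OE (adjusted p = 0.324). MLXIP, the MondoA gene, was at 0.04 with sorafenib (adjusted p = 0.499) and fell by 0.28 with MT1G-OE (adjusted p = 0.0149). Of 25 genes for cofactors and stability of MYC and MXD proteins 5 rose and 13 fell with sorafenib (median -0.24), beside 34.4% and 35.8% of all genes tested. TRRAP, a scaffold of histone acetyltransferases recruited by MYC, fell (log2 change -1.32), as did SIN3A and HDAC1, corepressors recruited by MXD proteins (-1.66 and -0.73). PVT1, the lncRNA gene next to MYC, rose to 1358 ± 84.3 normalized read counts with sorafenib, against 418 ± 28.4 with DMSO (log2 change 1.70, limma adjusted p = 1.51e-11), and the deubiquitinase USP36 rose by 0.82. With MT1G-OE 0 of the 25 rose and 6 fell (median -0.11), beside 11.5% and 11.3% of all genes tested. RUVBL2, a helicase of chromatin remodelling complexes, was among those that fell (-0.28), and PVT1 was at -0.09 (adjusted p = 0.648).

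Of 51 tested genes known as MYC-activated in ribosome making and growth, 10 rose and 31 fell with sorafenib, beside 34.4% and 35.8% of all genes tested. Their median log2 change was -0.22, beside -0.02 over all genes tested. LDHA, POLR1B (a subunit of RNA polymerase I) and GNL3 (nucleostemin) fell, with log2 changes of -1.17, -1.06 and -0.90. TERT, the catalytic subunit of telomerase, rose by 2.48 and the phosphatase CDC25A by 0.75. With MT1G-OE 4 of the 51 rose and 15 fell, beside 11.5% and 11.3% of all genes tested (median -0.16, beside 0.00). SHMT2, FBL and UNG fell, with log2 changes of -0.49, -0.44 and -0.44, while TERT rose by 1.44 and TFRC by 0.29.

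Of 9 tested genes known to be repressed by MYC, 7 rose and 1 fell with sorafenib (median 1.73), beside 34.4% and 35.8% of all genes tested. GADD45A, GADD45B and KLF6, which are also known as stress and early response genes, rose by 4.62, 4.49 and 2.83 on the log2 scale, and NDRG1 fell by 1.15. With MT1G-OE 3 rose and 1 fell (median 0.03), beside 11.5% and 11.3% of all genes tested. The cell cycle inhibitors CDKN1A and CDKN2B rose by 1.87 and 0.58 and KLF6 by 0.42. TXNIP, a brake on glucose uptake that this list shares with the ChREBP and MondoA list, fell by 0.51.

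Of 15 tested ChREBP and MondoA targets 5 rose and 8 fell with sorafenib (median -0.33), beside 34.4% and 35.8% of all genes tested, so the share that rose is near that of all genes. TXNIP rose to 8006 ± 145 normalized read counts with sorafenib, against 2416 ± 92.3 with DMSO (log2 change 1.73), and KLF10 rose by 1.94. The lipogenic genes ACLY, ELOVL6 and SCD fell, with log2 changes of -1.27, -1.32 and -0.75. With MT1G-OE 1 rose and 7 fell (median -0.22), beside 11.5% and 11.3% of all genes tested. TXNIP fell to 1599 ± 106 normalized read counts with MT1G-OE, against 2275 ± 135 with vector. The fructokinase KHK and FASN also fell, with log2 changes of -0.69 and -0.35, while KLF10 rose by 0.34.

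Of 13 other tested factors that bind E-boxes 6 rose and 4 fell with sorafenib, beside 34.4% and 35.8% of all genes tested. These shares are near those of all genes. BHLHE41, among the 6, was at 3.69 and was under the minimum mean in the MT1G-OE experiment. It may have reached that mean only through its sorafenib libraries, so its rise is given as a description. BHLHE40 was at 1.27 and ARNTL (BMAL1, a clock factor) at 1.53 among the rises, and USF1 at -0.86 and SREBF1 at -0.64 among the falls. HES1, a Notch target, rose to 661 ± 35.3 normalized read counts with sorafenib, against 234 ± 27.1 with DMSO. Of 12 tested 3 rose and 2 fell with MT1G-OE, beside 11.5% and 11.3% of all genes tested: BHLHE40 (0.45), CLOCK (0.41), ARNTL (0.40), SREBF1 (-0.35) and SREBF2 (-0.25).

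**Figure D4:**
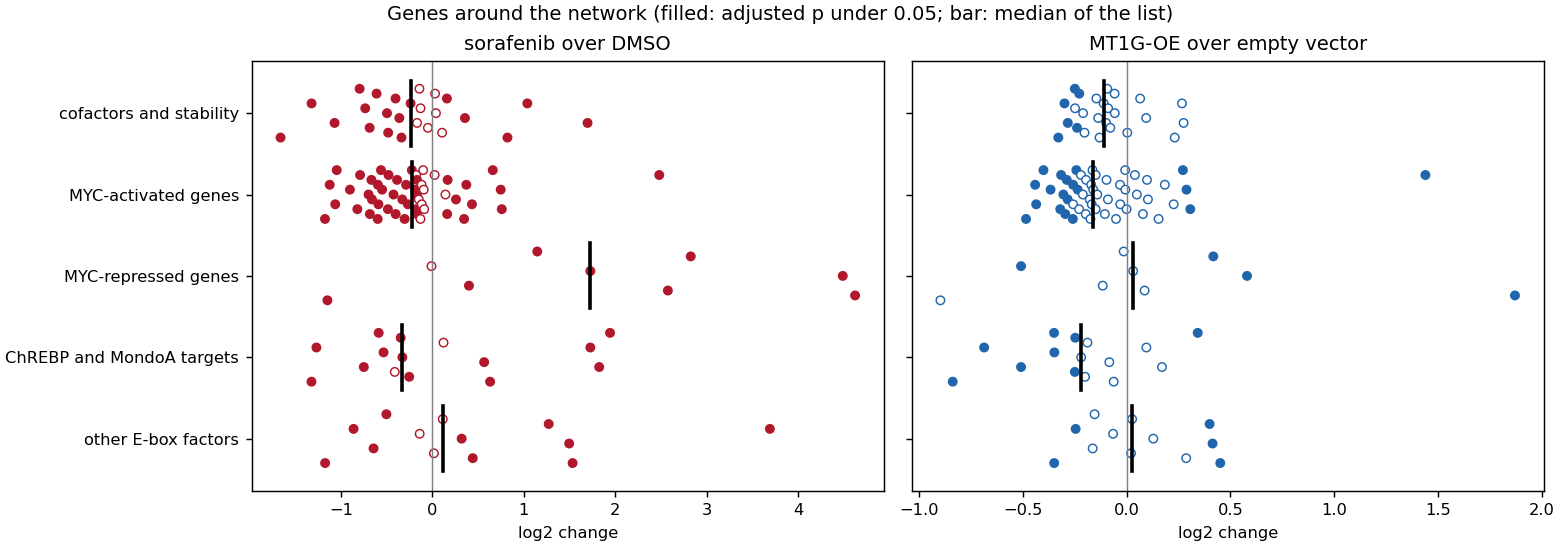
Log2 change of each tested gene of 5 lists around the network, chosen with earlier results of these data known. Points are genes, filled where the limma adjusted p was under 0.05, and bars are the median of each list. Sorafenib over DMSO is on the left and MT1G-OE over empty vector on the right, each with its own axis. MYC-activated genes lay mostly below 0 with sorafenib (31 of 51 fell), and MYC-repressed genes mostly above 0 (7 of 9 rose). Of all genes tested with sorafenib 35.8% fell and 34.4% rose.

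In the ATAC-seq lists most promoters of the network had a peak with and without sorafenib. Of the 12 promoter windows of 9 members 10 had a deposited peak in all 4 libraries, against 43.3% of all promoter windows, not matched for transcript level. None gained and none lost a peak in both libraries of a group, as 0.712% and 1.36% of all windows did. The exceptions were an alternative start of MAX, reached in sorafenib replicate 4 only, by the edge of the peak over its other start, and an inner start of MXI1 with none in any library. The authors' fold enrichment at the highest peak over the MYCL window, whose transcript was near silent with DMSO, was 9.98 and 10.4 in the sorafenib lists and 8.18 and 8.32 in the DMSO lists. At MXD1 it was 12.4 and 13.9 in the sorafenib lists and 14.0 and 14.5 in the DMSO lists. At MXD4, over the window with the CACGTG printed above, it was 12.6 and 13.4 in the sorafenib lists and 16.7 and 15.8 in the DMSO lists. At MNT, which also holds the motif, it was 4.04 and 3.997 in the sorafenib lists and 2.65 and 3.06 in the DMSO lists. At MXD3 it was 4.18 and 4.28 in the sorafenib lists and 8.55 and 10.4 in the DMSO lists, but at different summits. The MXD3 summits lay at -303 and -308 from the start in the sorafenib lists. In the DMSO lists they lay at 396 and 391, in a longer peak that reached the window. Summits also differed at MNT, at -609 and -165 in the sorafenib lists and -157 and -139 in the DMSO lists. At MYCL they lay at -467 and -468 in the sorafenib lists and -466 and -114 in the DMSO lists. The MXD1 summits lay outside the window, at -424 and -400 in the sorafenib lists and -402 and -359 in the DMSO lists. All these fold enrichments are relative to each library's own background and carry no comparison between lists. With 2 libraries against 2 no exact permutation test can reach the threshold.

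Regions were also merged over the 4 lists and described within 10 kb of each gene span. Of the 10 members 6 had a region with a peak in both sorafenib libraries and neither DMSO library: MYC, MYCL, MXD1, MXD3, MNT and MLXIPL. The same was found at 26.0% of all 20037 protein-coding spans. The reverse, a peak in both DMSO libraries and neither sorafenib library, was found at 1 of 10 members, MYCL, and at 38.0% of all spans. The 10 spans held 72 merged regions. Of these 38 had a peak in all 4 libraries, against 34.2% of all 220925 merged regions, 7 in both sorafenib and neither DMSO library (6.40% of all) and 1 in the reverse (12% of all). Such shares depend on span length and on how many peaks each list held, which were not matched. Around MYC 4 of 7 merged regions had a peak in all 4 libraries, including the region over the start of its span. The MYC region with a peak in both sorafenib and neither DMSO library lay inside the gene. It was 633 bases long, with fold enrichments of 2.30 and 2.32 in the sorafenib lists. MNT had 2 such regions inside the gene, of 359 and 217 bases. At MLXIPL the region of 458 bases, inside the gene, had fold enrichments of 4.21 and 4.56. At MXD1 it was 248 bases inside the gene, with 4.80 and 5.42. The region of MYCL with a peak under DMSO only was 190 bases inside the gene, with 4.03 and 3.65, and the one with a peak under sorafenib only was 267 bases long, 6129 bases upstream of the gene, with 3.85 and 3.92. The region of MXD3 lay 890 bases past the end of the gene.

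**Figure D5:**
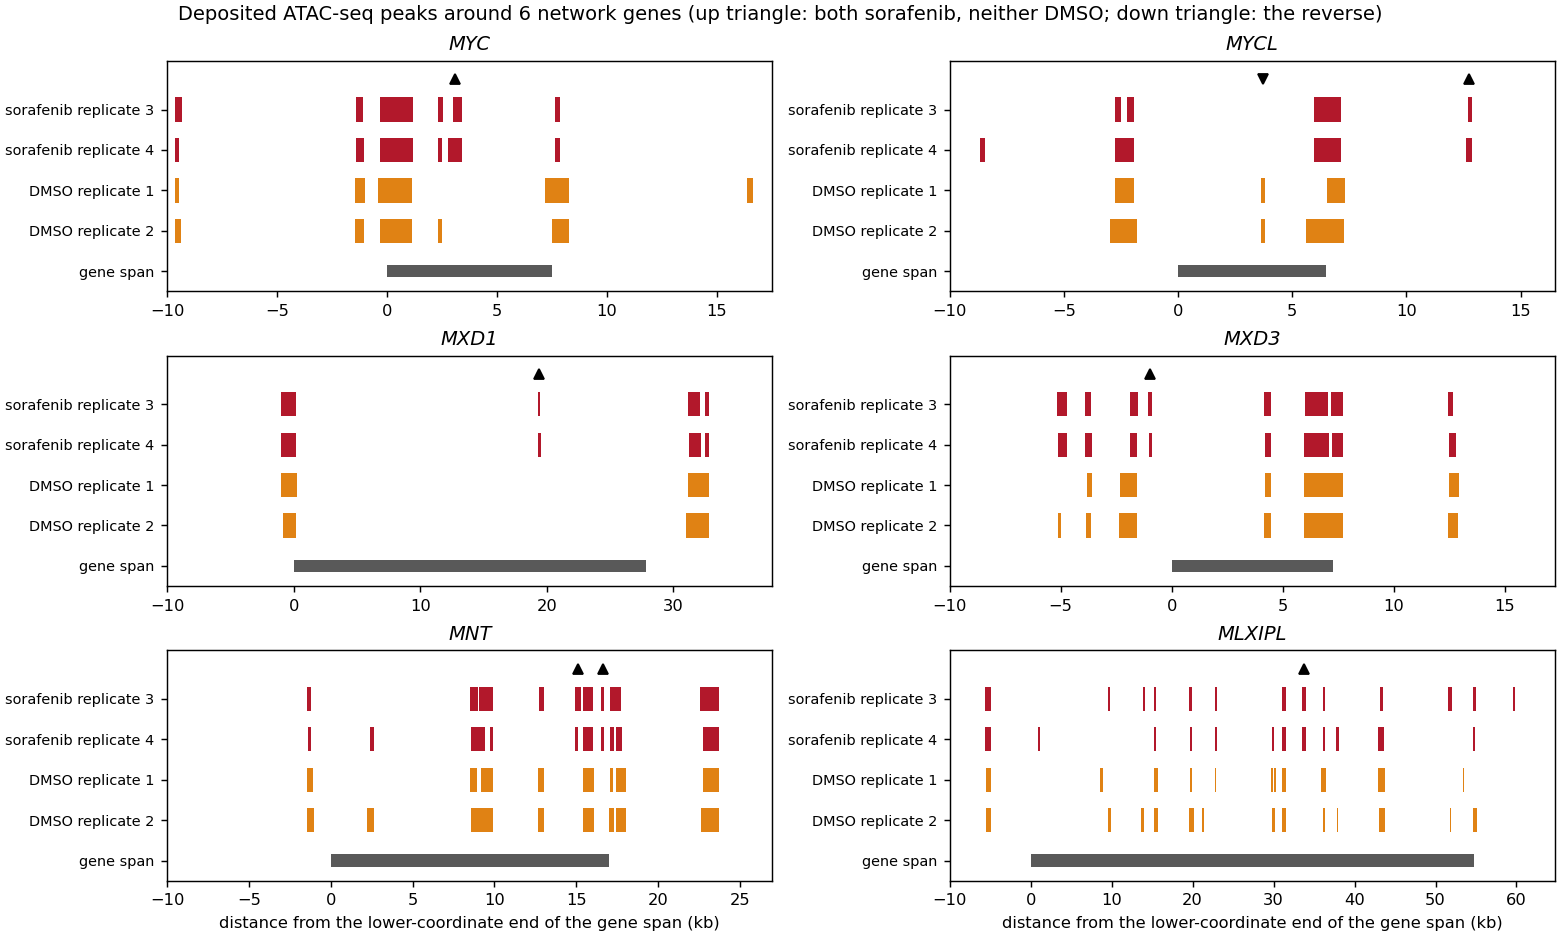
Deposited ATAC-seq peaks (coloured bars) in 2 sorafenib and 2 DMSO libraries around 6 network genes, by distance from the lower-coordinate end of the gene span in kb (grey bar, gene span). Up triangles mark merged regions with a peak in both sorafenib and neither DMSO library, the down triangle the reverse. The promoter windows of MYCL, MXD1, MXD3, MNT and MLXIPL held a peak in all 4 libraries. The MLXIPL window, at 73624473 to 73624772, lies inside the plotted span. At the upper-coordinate end of that span DMSO replicate 1 had no peak, and the other libraries did.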

How the data were processed

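Polyadenylated RNA was sequenced in 12 libraries and open chromatin by ATAC-seq in 4. The submitters' processing notes name the hg38 build and, without role or order, MACS2 2.2.7.1, SAMtools, Picard, Bowtie2 2.4.1, HISAT2 1.1.0, featureCounts 1.6.1, cutadapt and DESeq2. The RNA signal values are normalized read counts made by the authors: reads per gene divided by a size factor per library. Each column divided by its smallest value above 0 was whole for 100% of genes within 0.001, so reads were recovered. The deposited comparison tables hold log2 fold changes and p-values made by the authors, with a test score (fold change over standard error). The deposited peak lists, called per sample, hold a score, a fold enrichment (ratio), a -log10 p and a -log10 q per peak. Column names gave the group of each library but tied none to a replicate number, so replicate numbers of RNA libraries are column numbers.

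limma 3.58.1 (R 4.3.3; two-sided, with trend and robust options) tested log2 values with a pseudocount of 1, leaving out genes whose mean was under 10, and p-values were adjusted over all genes tested. Fold changes on this scale understate those of scarce genes. A threshold of 0.05 was used. Alternatives were TMM factors, no minimum mean, pseudocounts of 0.5 and 5, edgeR 4.0.16 and DESeq2 1.42.0 on recovered reads, and leaving out each library. The pipeline was tested on simulated data. Peaks at a promoter window shared at least 1 base with it, and merged regions were peaks sharing bases over the 4 lists. Genes outside the network were named by a rule: up to 3 per list with the smallest p in the direction of most calls and up to 2 against it. Some genes that the naming rules picked are not reported here. PHB1, G6PC1 and BMAL1 were matched by older symbols. The members and lists were chosen with earlier results of these data known. Intervals from reads cover counting error only.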

Additional observations from a re-analysis of the deposited data

How the results depend on the processing

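The 8 calls with sorafenib, 4 with MT1G-OE and 6 of the difference were the same genes with TMM factors, pseudocounts of 0.5 and 5, edgeR and DESeq2 on recovered reads. Without a minimum mean MYCL was added to those of MT1G-OE and of the difference, for 5 and 7. Leaving out 1 library gave 7 to 9, 4 to 6 and 6 calls. It ended the call of MLXIPL with sorafenib and added MLX, and MXI1 and MNT with MT1G-OE, as given with those genes. Signs turned only for values that were never called. Without 1 library, MXD3 with sorafenib ranged from -0.028 to 0.18, below 0 without sorafenib replicate 1 or DMSO replicate 1. The MLX difference was 0.022 with edgeR and 0.018 with DESeq2, and ranged from -0.13 to 0.049 without 1 library, above 0 without sorafenib replicate 1 or MT1G-OE replicate 1. The cause was not tested. Over all genes the MT1G-OE comparison called 3179. It called 2424, 1886 and 1771 without vector replicate 1, 2 or 3, and 3495, 2214 and 3831 without MT1G-OE replicate 1, 2 or 3. Its background share therefore moves with the libraries kept. Promoter windows with a peak in all libraries numbered 10 under each peak threshold and overlap tried and without any 1 ATAC-seq library (chosen after seeing the data), and 12 with 1 kb on each side. No paired analysis was possible because the columns carry no replicate number of the titles, and the planned fit with a replicate block was not run. Depth limits MYCL, MYCN and MLXIPL most.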
